A study of Mus musculus with 6 samples.

Results

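The RNA levels of 10 genes of the smooth muscle contractile apparatus, *Acta2*, *Actg2*, *Myh11*, *Tagln*, *Cnn1*, *Des*, *Mylk*, *Lmod1*, *Synpo2* and *Tnnt2*, were examined in intestinal adenomas of *ApcMin* and *Apc1322T* mice. The genes were chosen by symbol among the 34866 genes of the count table, and were taken up in part because *Tnnt2* was already known from these libraries to be higher in *ApcMin* adenomas. The difference in *Tnnt2* between the genotypes is therefore given as a description without a test. All 10 genes passed the filter on low counts, which left 16536 genes.

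The series compared adenomas of *Apc1322T*/+ mice (3 libraries) with those of *ApcMin*/+ mice (3 libraries). Both strains were C57BL/6J, carried their *Apc* allele in the germline on 1 chromosome only, and were aged 100 to 120 days. The *ApcMin* allele abolishes most of the function of *Apc*, whereas *Apc1322T* encodes a truncated protein that keeps part of it, and adenomas of either strain arise in epithelial cells after loss of the wild-type copy. No library of normal tissue was analysed here. Adenomas were excised and frozen whole, so that each library holds RNA from the tumour epithelium and from the stroma, muscle and vessels that came with it. Per the methods of the study, RNA from several extractions of 1 mouse was usually pooled for a sample. Estimated counts per library ran from 23132461 to 33518324. Levels are given as CPM, in which each library is scaled to the same effective total. On that scale 3 counts were worth 0.0838 CPM in the deepest library and 0.143 CPM in the shallowest, which describes counting error alone. As 3 libraries against 3 allow no exact permutation p below 0.10, adjusted p-values come from a model fitted across all genes.

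Smooth muscle cells shorten when calcium-bound calmodulin activates myosin light chain kinase, which phosphorylates the regulatory light chain of myosin and lets the myosin heads pull on actin filaments. These filaments carry tropomyosin, as in striated muscle, but calponin and caldesmon instead of a troponin complex. They are anchored in dense bodies tied to desmin filaments. In the intestine smooth muscle forms the outer muscle coat, the thin muscularis mucosae under the crypts, strands within the villi, and the walls of arteries and veins. Many of its genes are switched on by serum response factor (SRF) with myocardin or myocardin-related partners, through the CArG box, a short A/T-rich run flanked by CC and GG.

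The promoter sequences of RefSeq (GRCm38.p6) show where this box occurs near the start of the genes described below, in windows from 250 bases before to 50 bases after the start. A window was found for 7 of the 10 genes, with 2 for *Tnnt2*, and the search for the box reads the same on both strands. No window was found for *Actg2*, *Myh11* and *Tagln*, which were therefore not searched. That of *Mylk* (chr16:34784700-34784999) lies inside the span of the gene given below. Allowing 1 of the 6 inner letters to be other than A or T, the box was found in 1 of these 7 genes, *Acta2*, and in 9.98% of all 32851 promoters of the table. With all 6 inner letters A or T, it was found in none of the 7 and in 1.63% of all promoters. The windows of *Acta2* (chr19:34255324-34255623, minus strand), of *Myl9*, a light chain gene outside the 10 (chr2:156775214-156775513, plus strand), and the first window of *Tnnt2* (chr1:135836084-135836383, plus strand) are printed because these genes stand for different patterns below. The boxes are in capitals.
Acta2: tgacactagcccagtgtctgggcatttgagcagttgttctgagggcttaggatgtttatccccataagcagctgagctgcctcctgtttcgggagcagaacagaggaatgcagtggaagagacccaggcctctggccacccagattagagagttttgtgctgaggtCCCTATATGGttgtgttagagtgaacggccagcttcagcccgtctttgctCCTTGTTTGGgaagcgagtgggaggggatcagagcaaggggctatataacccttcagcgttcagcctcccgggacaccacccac
Myl9: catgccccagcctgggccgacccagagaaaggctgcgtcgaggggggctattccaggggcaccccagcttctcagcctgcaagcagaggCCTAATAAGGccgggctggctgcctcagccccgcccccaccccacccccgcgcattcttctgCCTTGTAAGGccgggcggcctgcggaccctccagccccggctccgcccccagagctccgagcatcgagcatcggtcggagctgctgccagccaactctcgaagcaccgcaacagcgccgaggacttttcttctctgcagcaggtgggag
Tnnt2: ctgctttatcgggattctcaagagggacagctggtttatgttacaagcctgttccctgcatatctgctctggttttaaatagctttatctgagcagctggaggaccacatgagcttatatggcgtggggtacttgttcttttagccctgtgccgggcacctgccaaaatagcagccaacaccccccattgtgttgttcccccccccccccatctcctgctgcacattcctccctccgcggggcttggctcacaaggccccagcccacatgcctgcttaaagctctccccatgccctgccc
The boxes of *Acta2* begin 84 and 34 bases before its start, and those of *Myl9* begin 161 and 99 bases before. Neither window of *Tnnt2* holds one. These matches describe letters only, and binding of SRF was not measured.

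The level of the 10 genes in the adenomas was first compared between genes, as CPM per kilobase of merged exons. The smooth muscle actin and SM22 genes led this order. *Acta2*, which encodes alpha smooth muscle actin, had a median over the 6 libraries of 39.5 CPM per kilobase, and *Tagln*, which encodes the actin-binding protein SM22-alpha, one of 36.4. Most libraries did not follow the order of these 2 medians, as *Acta2* was above *Tagln* in only 1 library. The gamma smooth muscle actin gene *Actg2*, typical of visceral muscle, followed with 23.4 and lay below *Tagln* in all 6 libraries. The level of the myosin light chain kinase gene *Mylk* was 19.8, and that of the desmin gene *Des* 13.4. *Actg2* exceeded *Mylk* in 4 libraries and *Mylk* exceeded *Des* in 5.

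*Tnnt2*, which encodes the troponin T of heart muscle, came next with a median of 7.002 CPM per kilobase, below *Des* in all 6 libraries. The calponin gene *Cnn1* followed with 5.28 and the smooth muscle myosin heavy chain gene *Myh11* with 5.15. *Tnnt2* exceeded *Cnn1* in 4 libraries, which were the *ApcMin* libraries and *Apc1322T* replicate 2. *Cnn1* exceeded *Myh11* in 4, so the order of these 3 genes was not the same in every library. At the foot stood *Lmod1*, which encodes the actin filament nucleator leiomodin, at 0.995 and *Synpo2*, which encodes an actin-bundling protein of dense bodies, at 0.777. *Myh11* was above *Lmod1* in all 6 libraries. The merged exons of *Mylk*, which also gives rise to a longer kinase of non-muscle cells, span 8091 bases and those of *Synpo2* 12943 bases, and the level per length of a gene with such isoforms depends on which of them are used.

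**Figure D1:**
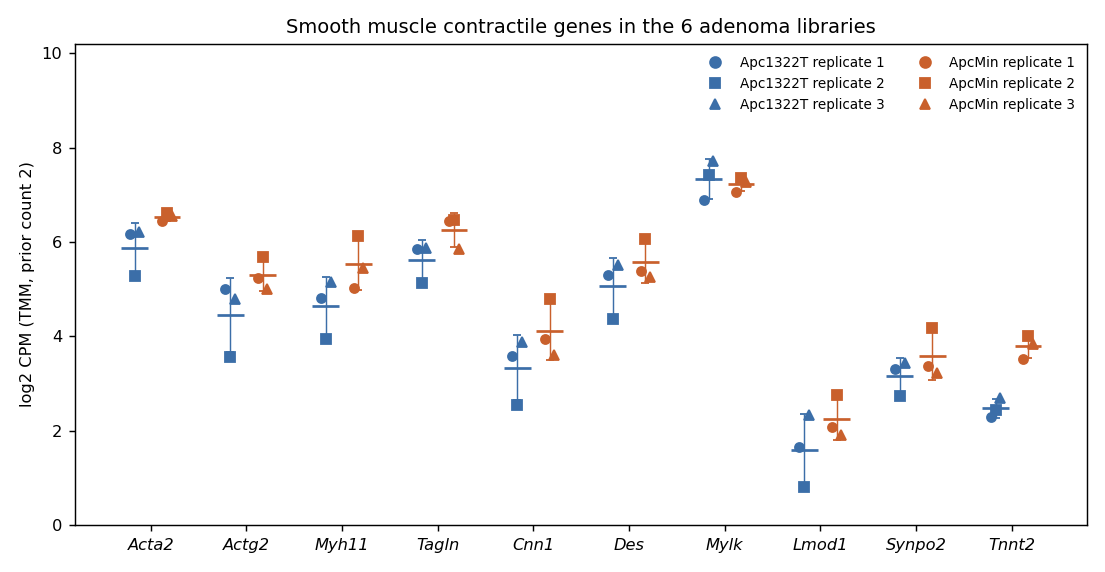
Log2 CPM (vertical axis) of the 10 genes in each of the 6 libraries, 1 point per library. In 8 of the 9 genes other than *Tnnt2* the lowest point is *Apc1322T* replicate 2 and the highest *ApcMin* replicate 2, *Mylk* being the exception.

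The comparison between genotypes was made on log2 CPM (prior count 2) and on log2 fold changes of *ApcMin* over *Apc1322T* fitted with edgeR. An adjusted p under 0.01, the threshold used here, was reached by 0 genes with edgeR (0.0% of 16536), although 2495 genes had an unadjusted p under 0.05, and DESeq2 called 194 genes and limma-voom 0. For the 9 genes other than *Tnnt2*, the log2 fold change was positive in 8 and had a median of 0.59, against a median of 0.017 over all genes tested, of which 52.4% were above 0. Adjusted p-values of the 9 ranged from 0.325 to 0.766 (edgeR, Benjamini-Hochberg over all genes), and DESeq2 called 0 of the 9. The unadjusted p was under 0.05 in 2 of the 9, *Acta2* and *Tagln*, both higher in *ApcMin*, as in 7.49% of all genes. The 3 *ApcMin* libraries lay above the 3 *Apc1322T* libraries in 2 of the 9, *Acta2* and *Actg2*, as in 11.0% of all genes. Since the genes were taken up with this comparison known, these counts are a description. *Apc1322T* replicate 2 was lowest and *ApcMin* replicate 2 highest for 8 of the 9 genes, and without either library the median fold change was 0.35 and 0.33, respectively.

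The actin genes were the pair among the 9 without overlap between genotypes. *Acta2* (ENSMUSG00000035783, chr19:34241090-34255590 of GRCm38) had 6.17, 5.28 and 6.20 log2 CPM in *Apc1322T* replicates 1, 2 and 3, and 6.44, 6.61 and 6.54 in *ApcMin* replicates 1, 2 and 3. The *ApcMin* libraries lay close together, and all were above the highest *Apc1322T* library. The fitted log2 fold change was 0.59 (SE 0.24, adjusted p = 0.327 by edgeR), on counts between 813 and 3114 per library. Without *Apc1322T* replicate 2 the log2 fold change of *Acta2* was 0.35.

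*Actg2* (chr6:83512905-83536265) had 4.995, 3.56 and 4.79 log2 CPM in the *Apc1322T* libraries and 5.23, 5.69 and 5.003 in the *ApcMin* libraries. Its groups did not overlap by the narrowest of margins, between *ApcMin* replicate 3 and *Apc1322T* replicate 1. The log2 fold change was 0.76 (SE 0.38, adjusted p = 0.386 by edgeR), and 0.44 without *Apc1322T* replicate 2. A difference between genes of the same library does not depend on the scaling of libraries, and the log2 CPM of *Actg2* minus that of *Acta2* was −1.18, −1.72 and −1.41 in *Apc1322T* and −1.21, −0.93 and −1.54 in *ApcMin*. The genotypes overlapped in this difference, whose mean over the 6 libraries was −1.33.

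Among the myosin genes, the heavy chain and the kinase did not move alike. *Myh11* (chr16:14194535-14291372) had 4.82, 3.95 and 5.16 log2 CPM in *Apc1322T* and 5.02, 6.12 and 5.44 in *ApcMin*. The groups overlapped because *ApcMin* replicate 1 lay below *Apc1322T* replicate 3. Its log2 fold change was 0.88 (SE 0.39, adjusted p = 0.352 by edgeR), and its value without *ApcMin* replicate 2 was 0.52.

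*Mylk* (chr16:34745210-35002420) had 6.88, 7.41 and 7.72 log2 CPM in *Apc1322T* and 7.06, 7.37 and 7.27 in *ApcMin*. Here the extremes were both *Apc1322T* libraries, replicate 1 being lowest and replicate 3 highest. The log2 fold change was −0.14 (SE 0.21, adjusted p = 0.766 by edgeR) and became 0.065 without *Apc1322T* replicate 3. The log2 CPM of *Mylk* minus that of *Acta2* was 0.71, 2.14 and 1.52 in *Apc1322T*, and between 0.61 and 0.75 in *ApcMin*. The *ApcMin* libraries were thus close to each other and to *Apc1322T* replicate 1 in the balance of kinase and actin RNA, with the other *Apc1322T* libraries higher.

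The actin-associated genes followed the actins with more overlap. *Tagln* (chr9:45929619-45936058) had 5.86, 5.13 and 5.87 log2 CPM in *Apc1322T* and 6.45, 6.47 and 5.85 in *ApcMin*, with a log2 fold change of 0.63 (SE 0.25, adjusted p = 0.325 by edgeR). *ApcMin* replicate 3 lay at the level of *Apc1322T* replicates 1 and 3, and the other *ApcMin* libraries above them. *Cnn1* (chr9:22099216-22109630), whose calponin binds actin and slows the myosin motor, had 3.58, 2.55 and 3.88 in *Apc1322T* and 3.94, 4.78 and 3.60 in *ApcMin*. Its log2 fold change was 0.75 (SE 0.43, adjusted p = 0.428 by edgeR), and its groups overlapped.

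*Lmod1* (chr1:135324807-135368065) was the lowest of the 10 in counts, with between 35 and 169 per library. Its log2 CPM was 1.66, 0.80 and 2.33 in *Apc1322T* and 2.08, 2.75 and 1.92 in *ApcMin*, a log2 fold change of 0.58 (SE 0.43, adjusted p = 0.528 by edgeR). *Synpo2* (chr3:123076519-123236149) had log2 CPM values from 2.73 to 3.43 in *Apc1322T* and from 3.23 to 4.17 in *ApcMin*, with a log2 fold change of 0.47 (SE 0.31). In both genes a single library of each genotype, replicate 2, set the ends of the range, and without *ApcMin* replicate 2 their fold changes were 0.28 and 0.11. *Des* (chr1:75360329-75368579), the intermediate filament of muscle cells, had 5.31, 4.37 and 5.51 in *Apc1322T* and 5.38, 6.07 and 5.26 in *ApcMin*, with a log2 fold change of 0.48 (SE 0.35). Outside replicate 2 of either genotype, the libraries of *Des* were within 5.26 and 5.51.

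**Figure D2:**
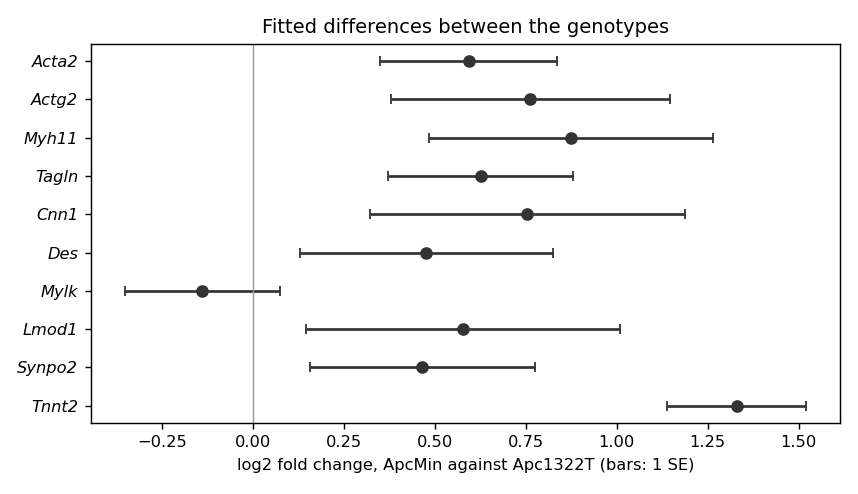
Fitted log2 fold change of *ApcMin* over *Apc1322T* for each of the 10 genes, with its standard error. The 9 genes other than *Tnnt2* lie between −0.14 (*Mylk*) and 0.88 (*Myh11*), and *Tnnt2*, which was chosen for this difference, lies at 1.33.

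How closely the genes varied together was described by centring each gene on its mean over the 6 libraries and taking the root mean square (RMS) difference from the mean of the other genes of the 9. *Des* was nearest to the others, at 0.091 on the log2 scale, followed by *Synpo2* at 0.17, *Lmod1* at 0.19 and *Acta2* at 0.21. *Tagln*, *Cnn1*, *Myh11* and *Actg2* lay between 0.22 and 0.28. *Tnnt2* stood apart with 0.49 and *Mylk* with 0.60. The centred mean of the 9 genes was −0.13, −0.88 and 0.13 in *Apc1322T* and 0.14, 0.70 and 0.043 in *ApcMin*. Leaving aside replicate 2 of each genotype, the other 4 libraries lay between −0.13 and 0.14, and the range of 1.59 over all 6 became 0.825 without *Apc1322T* replicate 2 and 1.02 without *ApcMin* replicate 2. In such whole adenomas, more smooth muscle cells and more smooth muscle RNA per cell cannot be told apart.

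*Tnnt2* followed that profile only in part. Its Pearson correlation with the mean of the other genes over the 6 libraries was 0.70, against −0.036 for *Mylk*. *Tnnt2* (ENSMUSG00000026414, chr1:135836354-135852260) had 131, 113 and 145 estimated counts in *Apc1322T* and 406, 408 and 449 in *ApcMin*. On the log2 CPM scale these were 2.29, 2.44 and 2.68 in *Apc1322T* (2.47 ± 0.20, SD, n = 3) and 3.51, 4.01 and 3.83 in *ApcMin* (3.79 ± 0.25, SD, n = 3). The genotypes were well apart. *ApcMin* replicate 2 was the highest library, as for 8 of the other genes, but *Apc1322T* replicate 2 was not the lowest, as it was for those 8. The log2 fold change was 1.33 (SE 0.19), or 2.51-fold, and stayed between 1.21 and 1.46 when each library was left out in turn. Less the mean of the 9 other genes, centred *Tnnt2* was −0.72, 0.20 and −0.57 in *Apc1322T* and 0.25, 0.18 and 0.66 in *ApcMin*. The mean of these values was higher by 0.73 in *ApcMin*. Set against the other smooth muscle genes, *Tnnt2* thus overlapped between genotypes, through *Apc1322T* replicate 2 (0.20) and *ApcMin* replicate 2 (0.18).

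The other troponin genes, which encode the remaining subunits of striated muscle, differed among themselves. *Tnni1*, the slow skeletal inhibitory subunit, had 0.28, 1.52 and 0.22 log2 CPM in *Apc1322T* and 1.68, 2.26 and 2.24 in *ApcMin*, with a log2 fold change of 1.31 (SE 0.43, adjusted p = 0.287 by edgeR). The inhibitory subunits *Tnni2* and *Tnni3* had 0.67 and 0.58, the calcium-binding subunit *Tnnc1* 0.67, and the slow troponin T *Tnnt1* −0.74, all with overlapping libraries. *Tnnt3* and *Tnnc2*, of fast muscle, were too low to test, with at most 10 and 4 counts. Of the 35 genes in a list of striated muscle genes, 17 could be tested, and *Myh2*, *Myh4*, *Myh6* and *Xirp2* had no counts in any library. The heart genes *Actc1*, *Myh7*, *Myl2* and *Nppa* had at most 9, 9, 1 and 3 counts, and the light chain gene *Myl3* at most 40. Other genes of the heart in this list were detected, *Tnni3* with 9 to 37 counts per library and the atrial light chain gene *Myl7* with 659 to 1698. For *Myl7* the log2 fold change was −0.16 (SE 0.26), with overlapping libraries.

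*Tnni1* lies close to *Tnnt2* on chromosome 1, with the epithelial anchoring gene *Lad1* between them. *Lad1* had a log2 fold change of −0.16 (SE 0.11) and overlapping libraries, and *Pkp1*, a desmosome gene on the other side of *Tnnt2*, had 0.31 (SE 0.14), also with overlap. Farther out, *Phlda3* had 0.53 (SE 0.12) without overlap and *Tmem9* 0.60 (SE 0.28) with overlap, and *Igfn1* was not tested, with at most 34 counts. Among the 10777 genes with a mean log2 CPM above 3, those most like *Tnnt2* in centred log2 CPM included *Plch2* (RMS difference 0.22), *Kit* (0.23), *Ltbp1* (0.26) and *Robo1* (0.26), against a median of 0.722 over all these genes. *Kit*, the receptor that marks interstitial cells of Cajal and mast cells, had 3.44, 4.09 and 3.91 log2 CPM in *Apc1322T* and 4.80, 5.18 and 5.57 in *ApcMin*. Such genes were picked for their likeness to *Tnnt2*, so their higher level in *ApcMin* follows from that choice.

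**Figure D3:**
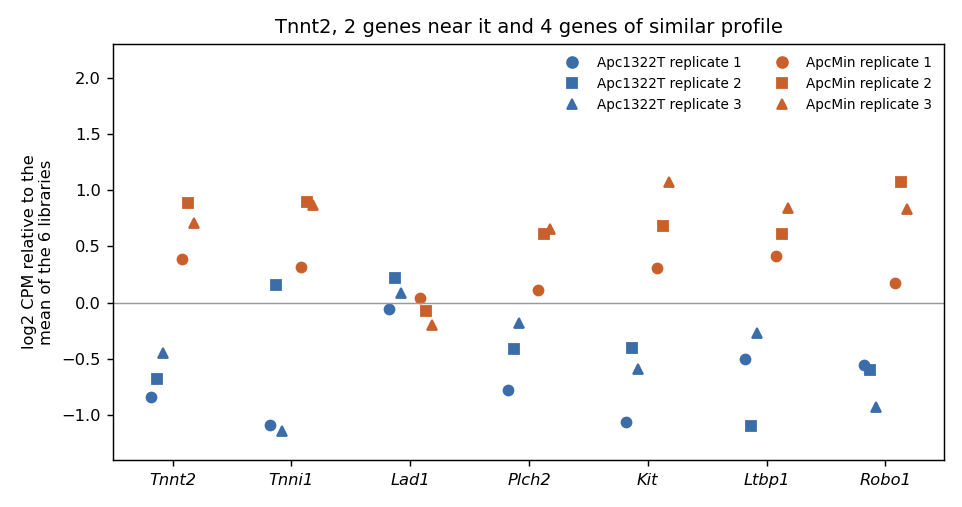
Log2 CPM of *Tnnt2* by library, relative to its mean over the 6, with 2 genes near it and 4 genes of similar profile. *Tnnt2* and *Kit* are higher in the 3 *ApcMin* libraries than in any *Apc1322T* library, whereas *Lad1* overlaps. *Tnnt2* was taken up for this difference and *Kit* was picked for its likeness to *Tnnt2*, so their separation is no test.

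The genes most like the other 9 were sought in the same way. *Tpm2*, the beta-tropomyosin that lies along actin filaments, was nearest with an RMS difference of 0.12, followed by *Ppp1r12b*, a regulatory subunit of myosin phosphatase, with 0.16 and by *Nkx2-3*, a homeobox gene of the gut mesenchyme, with 0.19. The median over all genes compared was 0.515. *Gsdma*, *Pgam1-ps2*, *Adamts17*, *Arhgef17*, *Kif26b*, *Emp2* and *Styx* completed the nearest 10, at up to 0.24. *Tpm2* had 5.10, 4.34 and 5.09 log2 CPM in *Apc1322T* and 5.42, 5.72 and 5.22 in *ApcMin*, again lowest and highest in replicate 2 of the genotypes. These likenesses rest on 6 libraries and are a description.

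The wider contractile apparatus was followed through a list of 52 further smooth muscle genes (light chains, tropomyosins, phosphatase subunits, dense body proteins and channels), of which 51 were tested. The log2 fold change was positive in 41 and negative in 10, with a median of 0.25 against 0.017 over all genes. None passed an adjusted p under 0.01 with edgeR. At an unadjusted p under 0.05, 13 of the 51 were higher in *ApcMin* and 1 lower, against 7.49% and 7.6% of all genes. Libraries did not overlap in 14 of the 51 with *ApcMin* higher and 2 with *ApcMin* lower, against 11.0% and 9.96% of all genes. The count of 13 was 5 without *Apc1322T* replicate 2, and also 5 without *ApcMin* replicate 2. Over all genes, the number at this level in either direction fell too, from 2495 to 1180 and 2128, respectively.

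The largest fold change of this list was that of *Myl9*, the regulatory light chain that the kinase *Mylk* phosphorylates. *Myl9* had 5.33, 4.06 and 4.96 log2 CPM in *Apc1322T* and 6.08, 6.69 and 7.61 in *ApcMin*. Every *ApcMin* library was above every *Apc1322T* library, and *ApcMin* replicate 3 was the highest. The log2 fold change was 2.06 (SE 0.49), with an adjusted p of 0.262 by edgeR and of 0.000229 by DESeq2. Within libraries, *Myl9* minus *Acta2* was −0.84, −1.21 and −1.24 log2 CPM in *Apc1322T* and −0.36, 0.079 and 1.07 in *ApcMin*, again without overlap.

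**Figure D4:**
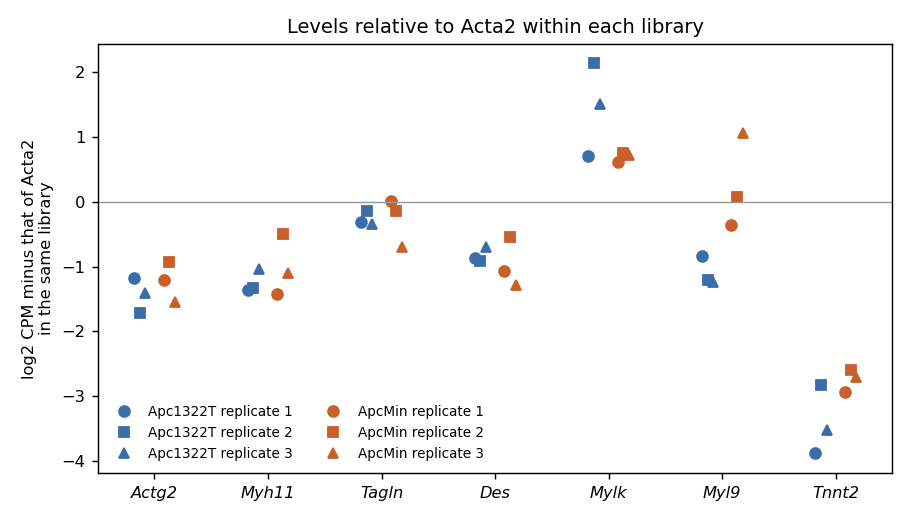
Difference in log2 CPM between genes of the same library, each gene minus *Acta2*, for the 6 libraries. *Actg2* keeps between −1.72 and −0.93 in all libraries, whereas *Mylk* is highest in *Apc1322T* replicate 2 (2.14) and *Myl9* in *ApcMin* replicate 3 (1.07).

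The next genes by size were the small heat shock protein gene *Hspb7* with a log2 fold change of 1.66 (SE 0.59) and the prostacyclin synthase gene *Ptgis* with 1.38 (SE 0.31), both without overlap. Their adjusted p-values by edgeR were 0.307 and 0.257. In the other direction, *Ckb*, the creatine kinase of brain and smooth muscle, had 8.64, 9.31 and 9.17 log2 CPM in *Apc1322T* and 8.28, 7.97 and 8.08 in *ApcMin*, with a log2 fold change of −0.95 (SE 0.19). DESeq2 called *Myl9* and *Ckb* of this list at an adjusted p under 0.01, against 0.721% of its 17346 genes called as higher and 0.398% as lower. *Rhoa*, a GTPase that inhibits myosin phosphatase through its kinases, had −0.16 (SE 0.084). Light chain *Myl6* (−0.31) and *Tpm1* (−0.15) were also negative, with overlap.

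The regulators of the smooth muscle program were described in the same way. Of 24 genes in the list, 20 were tested, 15 with a positive and 5 with a negative log2 fold change (median 0.22). SRF itself had a log2 fold change of −0.16 (SE 0.10), and its partners *Mrtfa* and *Mrtfb* had 0.13 (SE 0.12) and 0.060 (SE 0.17), all 3 with overlapping libraries. *Myocd*, which encodes myocardin, was below the filter with 4, 1 and 6 counts in *Apc1322T* and 7, 28 and 11 in *ApcMin*. None passed an adjusted p under 0.01, and 5 of the 20 were higher and 1 was lower at an unadjusted p under 0.05, against 7.49% and 7.6% of all genes. Libraries did not overlap in 8 of the 20 with *ApcMin* higher and 1 with *ApcMin* lower, against 11.0% and 9.96% of all genes. The highest of the 8 was *Gli1*, a target of hedgehog signals from the epithelium, with 1.07 (SE 0.41). The muscle transcription factor gene *Mef2c* with 0.69 (SE 0.22) and the gut mesenchyme gene *Foxf1* with 0.64 (SE 0.23) followed. *Gata6* was lower without overlap at −0.29 (SE 0.096).

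Markers of other cell types that an excised adenoma can hold were compared between genotypes as well. Of the epithelium, fibroblast, endothelium and pericyte lists, only the epithelium had centred means without overlap. For fibroblast, endothelium and pericyte genes *ApcMin* replicate 2 (−0.12, −0.046 and 0.029) lay below *Apc1322T* replicate 1 (−0.076, 0.060 and 0.18). All 12 intestinal epithelium genes had a negative log2 fold change (median −0.39), 8 had an unadjusted p under 0.05 (7.6% of all genes were lower at this level) and 8 had libraries without overlap (9.96% of all genes). Their summed level was between 17154 and 20959 CPM in *Apc1322T* and between 13805 and 16325 CPM in *ApcMin*. Examples were the tight junction genes *Cldn3* (−0.52, SE 0.11) and *Cldn7* (−0.42, SE 0.14) and the intestinal transcription factor gene *Cdx2* (−0.49, SE 0.19). This sum was lower in each *ApcMin* library than in any *Apc1322T* library, and the part of this difference in the values of the smooth muscle genes was not tested.

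Of 14 fibroblast genes, 12 were positive, with a median log2 fold change of 0.95, 4 higher at an unadjusted p under 0.05 and 5 without overlap, against 7.49% and 11.0% of all genes. Their summed level was 2009, 1090 and 1389 CPM in *Apc1322T* and 3886, 1517 and 1936 CPM in *ApcMin*, highest in *ApcMin* replicate 1, where the smooth muscle genes were not at their highest. *Lum* (1.57, SE 0.56), *Dpt* (1.08, SE 0.22) and *Pdgfra* (1.00, SE 0.23) led those without overlap, and *Fbln1* (−0.52, SE 0.14) was lower. All 10 endothelium genes were positive (median 0.47), 3 of them without overlap against 11.0% of all genes, led by the vascular cadherin gene *Cdh5* at 1.38 (SE 0.37). The 12 tested of 14 genes of pericytes and vascular smooth muscle were all positive too (median 0.50), and 2 were without overlap (11.0% of all genes), *Mustn1* at 0.86 (SE 0.34) and *Abcc9*, a potassium channel subunit, at 0.74 (SE 0.31). None of the genes of these lists passed an adjusted p under 0.01 with edgeR, whereas DESeq2 called *Dpt*, *Pdgfra* and *Cdh5* as higher and *Cldn3* as lower.

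The 9 smooth muscle genes were then set against these lists within each library. The centred mean of the 9 less that of the fibroblast genes was lower by 0.17 in *ApcMin* (log2), and less that of pericytes or endothelium it was higher by 0.069 and 0.048. The genotypes overlapped in each of these differences, and that from fibroblasts ran from −0.93 to 0.82 within *ApcMin*. Less that of the epithelium, the mean of the 9 was higher by 0.98, without overlap. *Tnnt2* less the fibroblast genes was higher by 0.56 with overlapping libraries, and less the epithelium by 1.71 without overlap. *ApcMin* replicate 2, highest for the 9, was near or below the mean of the libraries for fibroblast (−0.12), endothelium (−0.046) and pericyte genes (0.029), while *Apc1322T* replicate 2 was lowest for all of these lists.

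**Figure D5:**
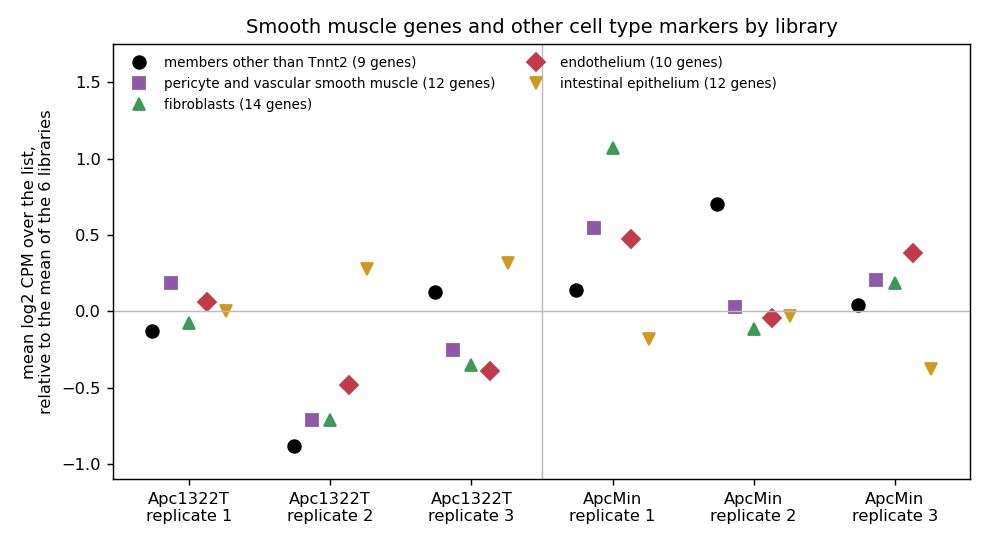
Mean log2 CPM of each marker list by library, relative to its mean over the 6 libraries, 1 symbol per list. *Apc1322T* replicate 2 is low for the 9 smooth muscle genes (−0.88) and for the stromal lists, and *ApcMin* replicate 2 is high for the 9 genes (0.70) but not for fibroblasts (−0.12).

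Cells that lie within the muscle coat were represented by few genes. Of 6 genes of interstitial cells of Cajal, the pacemakers of gut muscle, 5 were positive (median 0.38). Only *Kit*, named above for its likeness to *Tnnt2*, had libraries without overlap, against 11.0% of all genes. Its log2 fold change was 1.39 (SE 0.25). DESeq2 called *Kit* alone of this list, against 0.721% of its genes called as higher. *Ano1* had 0.12 (SE 0.28) and *Edn3* −0.35 (SE 0.68), both with overlap. Of 14 enteric neuron and glia genes, 8 were tested and 6 were positive (median 0.48). The nitric oxide synthase gene *Nos1* (1.15, SE 0.40) and the neuronal tubulin gene *Tubb3* (1.09, SE 0.31) were without overlap, 2 of 8 against 11.0% of all genes, and the glial gene *Gfap* was below the filter, with at most 18 counts.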

How the data were processed

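Adenoma RNA of 3 *ApcMin*/+ and 3 *Apc1322T*/+ mice was made into strand-specific libraries from 1 μg of total RNA and sequenced on 1 lane as single-end reads of 50 bases. The authors quantified transcripts of GRCm38 with Salmon and deposited estimated counts summed per gene, which are not normalised. A read that fits several genes is divided between them.

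Estimated counts were rounded and named through GENCODE M21 (34652 of 34866 identifiers matched). Genes were filtered with filterByExpr (minimum count 10, minimum total 15), scaled by TMM and tested by quasi-likelihood in edgeR 4.0.16 (R 4.3.3, robust setting), with all 6 libraries, genotype only, Benjamini-Hochberg, threshold 0.01. Log2 CPM used a prior count of 2. Levels between genes were divided by merged exon length. The procedure was tested on simulated data. Alternatives were DESeq2 1.42.0, limma-voom (limma 3.58.1), other normalizations, filters, prior counts and thresholds, a replicate block, and each library left out.

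The genes, the lists and the tests were chosen with earlier results of these data known. Genes named from the lists were at most 3 in each direction with the largest fold change among those without overlap, the 4 SRF-related regulators, the troponins, the genes most alike in profile and the neighbours of *Tnnt2*. Of the wider list, *Myl6* and *Tpm1*, and the heart genes, *Gfap*, *Ano1*, *Edn3*, *Upk3b* and *Gpm6a*, were named after their values were seen. Some genes that this rule names are not reported here.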

Additional observations from a re-analysis of the deposited data

How the results depend on the processing

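The log2 fold change of *Tnnt2* stayed positive under all 13 alternatives, from 1.21 to 1.46. The median over the other 9 genes stayed positive too, between 0.33 and 0.74 when a library was left out and between 0.58 and 0.65 otherwise, and that of the wider list lay between 0.16 and 0.33. Of single genes, *Mylk* alone changed sign, under 1 alternative. The number of genes past the threshold was 0 with edgeR and between 0 and 1 when a library was left out (*Fabp6*, without *ApcMin* replicate 3). It was 194 with the DESeq2 Wald test, and 1, *Krt14*, with no filter on low counts or at an adjusted p under 0.05; these 2 genes are named because they were the only calls. The range of the mean of the 9 genes was between 0.825 and 1.59 with a library left out. The mean of *Actg2* minus *Acta2* stayed between −1.41 and −1.25. Replicate numbers did not pair the libraries (correlations of deviations −0.014, 0.16 and −0.29). With a replicate block the number of genes past the threshold was 0 and the median of the 9 genes was 0.64. Genes at an unadjusted p under 0.05, in either direction, went from 2 to 0 of the 9 and from 14 to 8 of the wider list. Over all genes tested, their number went from 2495 to 2113. The median of all genes was 0.017 with TMM, 0.0065 with DESeq2 size factors and 0.074 with upper quartile normalization. There were 3 libraries per genotype, and counts were few for *Myocd* and *Lmod1*.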

Other observations

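Some genes outside the smooth muscle lists were highest in *ApcMin* replicate 3, a library in which the 9 smooth muscle genes were near the mean of the 6 libraries. The skeletal muscle calsequestrin gene *Casq1* had 0.038, −1.14 and −0.54 log2 CPM in *Apc1322T* and 1.02, 2.20 and 3.67 in *ApcMin*, with a log2 fold change of 3.27 (SE 0.77, adjusted p = 0.257 by edgeR and 0.000341 by DESeq2). Nebulin, the giant thin filament protein of striated muscle encoded by *Neb*, had a log2 CPM of 1.04, 0.71 and 0.56 in *Apc1322T* and of 1.67, 2.16 and 4.19 in *ApcMin*. The mesothelial gene *Msln* had 2.80, 2.65 and 2.76 in *Apc1322T* and 3.48, 3.75 and 5.14 in *ApcMin*. All 3 genes were above every *Apc1322T* library in each *ApcMin* library, with *ApcMin* replicate 3 the highest. Of the 17 striated muscle genes tested, 12 had a positive log2 fold change (median 0.53), against 52.4% of all genes tested (median 0.017). Only 3 of the 6 mesothelium genes could be tested. Besides *Msln* these were *Upk3b*, with a log2 fold change of 0.069 (SE 0.90), and *Gpm6a*, with 1.44 (SE 0.66). Both had overlapping libraries, and neither was highest in *ApcMin* replicate 3.

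Reads of 50 bases can fit more than 1 gene where sequences are alike. The share of windows of that length in the transcripts of a gene that also occur in another gene was at most 0.34% for the 10 genes (*Myh11*, with *Myh9*), and 0 for *Actg2*, *Tagln*, *Cnn1*, *Des* and *Lmod1*.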
